A study of Mus musculus with 6 samples.

Results

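The genes described here are the metalloproteases and their tissue inhibitors that were measured in bone marrow macrophages on the way to becoming osteoclasts. A gene was taken when the platform annotation gave a probe set 1 symbol made of Mmp, Adam, Adamts or Timp and a number (with or without a closing letter), and Mmp8, Mmp9 and Mmp14 were left out. This gave 62 of the 18193 genes measured: 15 matrix metalloproteinases (MMPs), 28 ADAMs, 15 ADAMTS proteases and 4 tissue inhibitors of metalloproteinases (TIMPs). They were read by 110 probe sets, and each gene was represented by the probe set whose log2 intensity, averaged over the 6 arrays, was highest, whichever genotype was brighter.

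Matrix metalloproteinases cleave collagens and other matrix proteins with a zinc ion in the active site, and they are made as inactive precursors. ADAMs are membrane proteins with a related protease domain and a disintegrin domain, and the proteolytic ones release the outer part of other membrane proteins, a step called shedding. ADAMTS proteases are secreted relatives that carry thrombospondin repeats and process procollagens and matrix proteoglycans. TIMPs bind the active site of these enzymes. In bone, osteoclasts and stromal cells both make metalloproteases, which open the matrix and free or destroy signalling proteins at the cell surface.

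The series set 3 arrays of wild-type (WT) cells against 3 arrays of knockin (KI) cells, both of strain C57BL/6, each grown for 24 hours in 44 ng/ml of M-CSF together with 100 ng/ml of RANKL. M-CSF keeps macrophages alive and RANKL acts through the receptor RANK to turn them into osteoclasts. The title names the IVVY motif of RANK, and the comparison concerns expression when that motif is changed; the altered residues, the age and sex of the mice and whether the 3 arrays of a genotype came from separate mice are not given in the labels. The p-values therefore measure the spread between these arrays, which may be technical. There was no group without RANKL, so the values do not show which genes RANKL changes.

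The median deposited intensity lay between 83.0 and 84.8 on the 6 arrays. Within a genotype WT 1 and KI 1 stood farthest from the others (Pearson r across probe sets of 0.993 to 0.994 for WT 1 and 0.995 to 0.997 for KI 1, against 0.998 between WT 2 and WT 3 and 0.998 between KI 2 and KI 3). Of the macrophage markers 10 of 10 were above the median probe set, and their summed intensity was 92505 to 116110 in WT and 147980 to 156593 in KI. Of 8 osteoclast markers 7 were above it, with sums of 50246 to 58559 in WT and 27026 to 31035 in KI. Neutrophil markers (8 of 9 measured) summed to 15888 to 19911 in WT and 22195 to 43747 in KI. Markers of stromal cells and osteoblasts, other makers of these proteases, were measured for 11 of 12 genes, with 7 above the median probe set, and summed to 3057 to 9733 in WT and 2999 to 11072 in KI. In a bulk RNA sample, more cells of a type and more RNA per cell cannot be told apart.

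Few of the proteases and inhibitors passed the test between the genotypes. Adam15, Adam17, Adam9 and Adamts10 rose in KI cells, Adam8 and Adamts7 fell, and the other 56 genes did not pass the threshold (adjusted p under 0.05, limma with Benjamini-Hochberg adjustment over all 18193 genes). These 6 of 62 genes are 9.68%, where 26.8% of all genes passed, 11.9% higher and 14.9% lower in KI. The WT and KI arrays did not overlap for 14 of the 62 (22.6%), where 45.2% of all genes did not overlap. The median difference of the family, KI minus WT on the log2 scale, was 0.05, and that of all genes was 0.00; the median sizes without regard to sign were 0.11 and 0.16. None of the 62 differed 2-fold. Low signal was common among them: 16 of the 62 had a mean above the median of all probe sets, against 10941 of the 18193 genes. On every array 3 of the 62 (Adam25, Adam34 and Adamts20) lay under the floor of 16, so that no change could be read for them. Among the 16, 5 passed (31.2%), against 40.9% of all genes above that median. Without WT 1 and KI 1 the same 6 genes passed. Scaling moved the balance: set to the control RNAs added before hybridisation (spike-ins), 2 rose and 6 fell, and set to an earlier design of probe sets for these spike-ins (older spike-in scaling), 0 rose and 19 fell. Over all 18193 genes the first scaling gave 1284 higher and 4961 lower (34.3% called), and the older one 421 higher and 8186 lower (47.3%). The median of all genes moved by these scalings to -0.20 and -0.51, so the directions given next hold for the values as deposited.

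**Figure D1:**
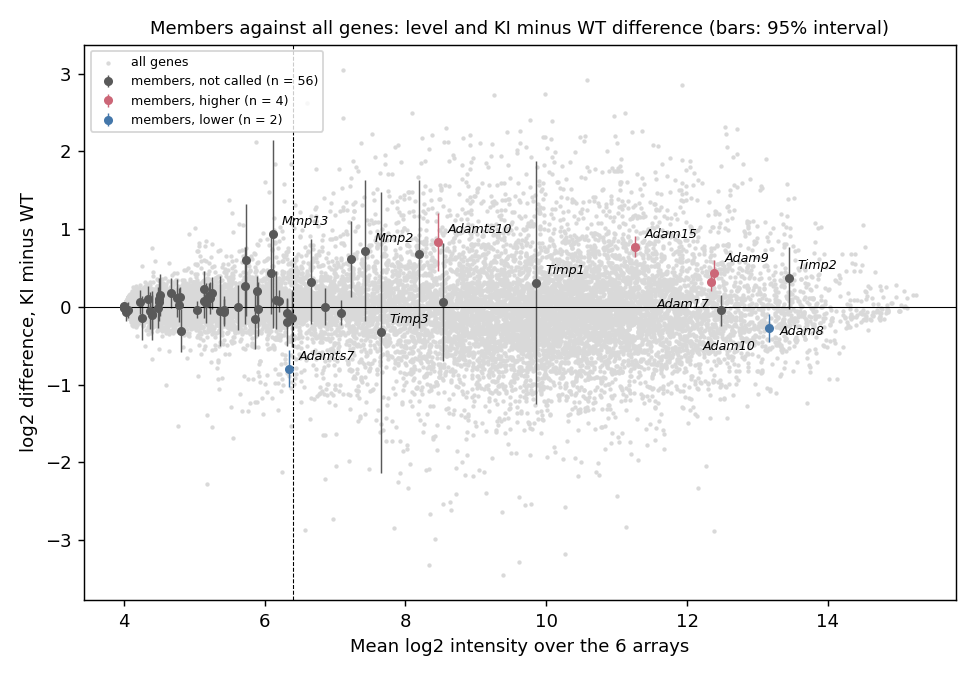
The mean log2 intensity over the 6 arrays (x axis) and the log2 difference KI minus WT (y axis) are plotted for the 62 members, with 95% intervals, over all 18193 genes in grey; the dashed line is the median of all probe sets. The 4 members that rose and the 2 that fell lie within 1 log2 unit of 0 (Adam17 and Adam9 turn under the older spike-in scaling), and the widest intervals are those of Timp3 and Timp1.

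The widely expressed proteolytic ADAMs held 4 of the 6 genes that passed: of 9 measured, 3 rose, 1 fell and 5 did not pass. The 4 of 9 are 44.4%, against 26.8% of all genes. All 4 were among the 7 of these genes that lay above the median probe set, where 40.9% of all genes passed. A share of so few genes says little. Adam15, also called metargidin, a membrane protease that binds integrins, had intensities of 1850, 1954 and 1845 on the WT arrays and 3053, 3257 and 3355 on the KI arrays. Every KI array lay well above every WT array. The rise was 1.71-fold, or 0.77 in log2 units (SE 0.05, adjusted p = 0.00188 by limma), and 3 of its 4 probe sets rose when all probe sets were tested, where 18.7% of probe sets passed. The last of them differed by 0.29 (adjusted p = 0.161 by limma). The probe set used is of a kind that can share probes with other transcripts, and without such probe sets the difference was 0.82 (adjusted p = 0.00216). Under the older spike-in scaling the difference of Adam15 was 0.24 and did not pass (adjusted p = 0.4 by limma).

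Adam17 encodes the TNF-alpha converting enzyme, which sheds TNF and its receptors. Its intensities were 4551, 4593 and 4743 in WT and 5668, 6025 and 5593 in KI, without overlap. The rise was 1.24-fold, 0.32 in log2 units (SE 0.05, adjusted p = 0.00828 by limma). Its other 2 probe sets differed by 0.26 and 0.23 and did not pass (limma adjusted p = 0.0917 and 0.266 among all probe sets). Adam17 did not pass with 1 mean per gene (0.27, adjusted p = 0.054), and it turned to -0.21 (adjusted p = 0.448) under the older spike-in scaling.

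Adam9, a membrane protease also called meltrin gamma, had intensities of 4224, 4641 and 4864 in WT and 5972, 6236 and 6391 in KI. All KI arrays were above all WT arrays. The rise was 1.36-fold, 0.44 in log2 units (SE 0.06, adjusted p = 0.00869 by limma), and it turned to -0.09 (adjusted p = 0.754) under the older spike-in scaling. Spike-in scaling ended the calls for both Adam9 (0.23, adjusted p = 0.0632) and Adam17 (0.11, adjusted p = 0.332), as did a covariate made from the number that each sample description carries (adjusted p = 0.0651 and 0.0635). With that covariate 9.18% of all genes passed, where 26.8% did without it.

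Adam8 went the other way. It encodes a leukocyte protease that osteoclast precursors also make and that has been linked to their fusion. Its intensities were 9747, 10230 and 10331 in WT and 7568, 8943 and 8598 in KI, and the groups did not overlap. The fall was 1.21-fold (log2 difference -0.27, SE 0.07, limma adjusted p = 0.0416). The call ended when any 1 of the 6 arrays was left out (limma adjusted p = 0.0501 to 0.113), with differences from -0.20 to -0.32. Without WT 1 and KI 1 together Adam8 passed (-0.23, limma adjusted p = 0.0214). The call also ended when the arrays were set to a common median (adjusted p = 0.0538). It did not pass when all probe sets were tested (adjusted p = 0.057 by limma). The summed neutrophil markers, a cell type that makes this protease, lay higher on every KI array than on any WT array, and the summed osteoclast markers lay lower on every KI array (27026 to 31035, against 50246 to 58559 in WT). At the threshold, which 26.8% of all genes passed, 1 of 8 neutrophil markers rose and 5 of 8 osteoclast markers fell. For 3 of the neutrophil markers the groups overlapped. The part of either cell type in the Adam8 value was not tested.

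**Figure D2:**
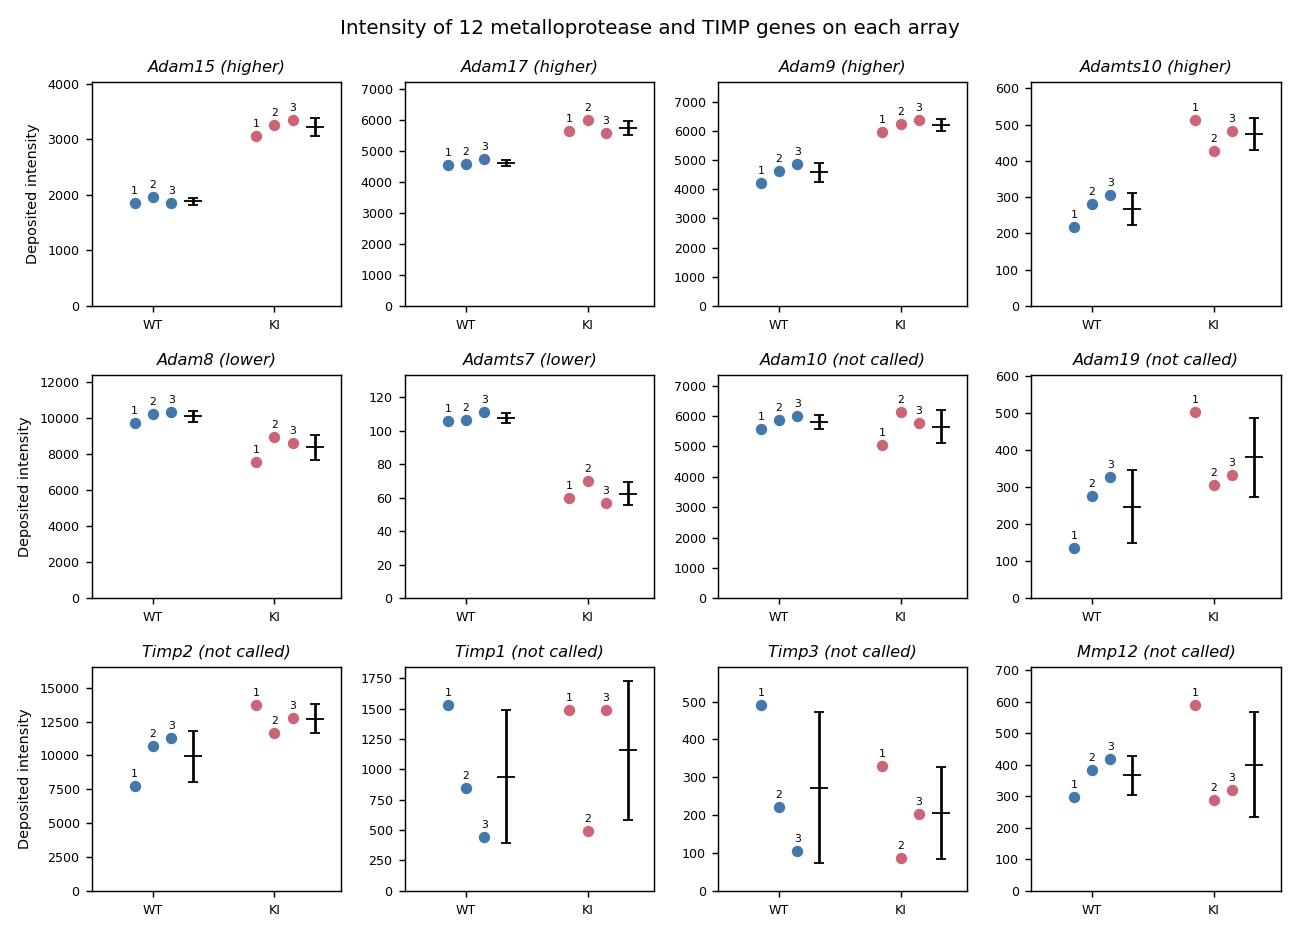
Deposited intensity (y axis, from 0, a scale of its own in each panel) of 12 members on each of the 3 WT and 3 KI arrays; numbers mark the replicate, and black bars are the mean and SD of 3 arrays. KI arrays lie above WT arrays for Adam15, Adam17, Adam9, Adamts10 and Timp2 (of which Adam17, Adam9 and Timp2 turn under the older spike-in scaling), below them for Adam8 and Adamts7, and overlap for the other 5.

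Adam10, the main sheddase of Notch receptors and a close relative of Adam17, did not pass. Its intensities were 5567, 5863 and 6004 in WT and 5053, 6130 and 5770 in KI, so the groups overlapped. The log2 difference was -0.04, with a 95% interval from -0.25 to 0.16 (adjusted p = 0.746 by limma), and 0 of its 4 probe sets passed. Adam33 had no overlap, at 92.8, 139.7 and 138.4 in WT and 212.0, 163.1 and 185.6 in KI, but did not pass (log2 difference 0.61, SE 0.20, adjusted p = 0.0735). Adam19, also called meltrin beta, was at 136.7, 277.5 and 327.8 in WT and 502.8, 306.9 and 332.5 in KI. Here WT 1 was the low array and KI 1 the high one, and the other 4 overlapped (log2 difference 0.68, SE 0.38, adjusted p = 0.255). Adam12 (meltrin alpha), with a part in the fusion of muscle cells, and Adam28 lay below the median probe set (log2 differences 0.23 and 0.13, adjusted p = 0.137 and 0.125).

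The start regions of Adam17, which rose, and Adam8, which fell, are shown because one is rich in CpG and the other is not. Each is the 250 bases before the annotated transcript start in RefSeq, build GRCm38.p6, written 5′ to 3′ on the strand of the gene, with every CpG dinucleotide in capitals. That of Adam17 is at chr12:21373633-21373882 and that of Adam8 at chr7:139992563-139992812, both on the minus strand.
Adam17: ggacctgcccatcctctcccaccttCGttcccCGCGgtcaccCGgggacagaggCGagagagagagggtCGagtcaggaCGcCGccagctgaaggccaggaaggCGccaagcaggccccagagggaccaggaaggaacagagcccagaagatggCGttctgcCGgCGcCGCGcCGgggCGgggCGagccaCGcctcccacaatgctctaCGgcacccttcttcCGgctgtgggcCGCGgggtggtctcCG
Adam8: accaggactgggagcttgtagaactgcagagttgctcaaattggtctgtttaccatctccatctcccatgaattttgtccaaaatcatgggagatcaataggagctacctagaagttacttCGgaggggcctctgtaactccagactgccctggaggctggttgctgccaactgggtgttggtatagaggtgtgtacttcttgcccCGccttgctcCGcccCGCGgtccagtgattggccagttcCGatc
The Adam17 region held 23 CpG dinucleotides and was 70.4% G and C, with 0.74 of the CpG count expected from its bases. The Adam8 region held 6, at 52.8% and 0.34. Counting as CpG-rich a region of at least 50% G and C with a ratio of at least 0.6, the promoter table held entries for 35 of the 62 members and 13 of these 35 (37.1%) were CpG-rich, against 52.9% of 14368 genes of the array. Of the 11 members above the median probe set with an entry 7 were CpG-rich, as were 6 of the 24 below it and 0 of 7 reproductive tract ADAMs. Neither region shown held TGACTCA, the letters bound by AP-1 factors.

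Of the ADAMs of other tissues none passed, where 26.8% of all genes did. Those of the reproductive tract, which act in sperm maturation and egg binding, were 16 genes, of which 0 lay above the median probe set and 16 overlapped between the groups, with differences from -0.15 to 0.15 and a median of -0.02. Adam6a and Adam6b are close copies, and a probe set annotated to both was not used. The brain ADAMs without a working protease site, Adam11, Adam22 and Adam23, also lay below the median probe set (-0.03, 0.60 and 0.20). Adam22 reached 101.6 on KI 1 alone, against 54.7 and 51.1 on the other KI arrays and 38.9 to 51.4 in WT.

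Among the ADAMTS proteases Adamts10 rose and Adamts7 fell, and 13 of 15 did not pass, where 26.8% of all genes passed. Of the 15, 2 lay above the median probe set. Adamts10, a protease bound to fibrillin fibres, had intensities of 217.7, 280.0 and 304.6 in WT and 514.1, 428.3 and 482.1 in KI. The groups were well apart, with WT 1 the lowest WT array and KI 1 the highest KI array. The rise was 1.79-fold, 0.84 in log2 units (SE 0.15, adjusted p = 0.0141 by limma). It did not pass without KI 1 (0.78, adjusted p = 0.052) or without KI 3 (0.83, adjusted p = 0.0601), nor under the older spike-in scaling (0.31, adjusted p = 0.315), nor with the description-number covariate (0.89, adjusted p = 0.0741). Its other probe set, below the median probe set, had a difference of 0.09 (limma adjusted p = 0.428 among all probe sets).

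Adamts7, which cleaves cartilage oligomeric matrix protein, had intensities of 105.8, 106.0 and 111.0 in WT and 59.8, 70.1 and 56.9 in KI. All KI arrays were below all WT arrays, and the spread within each group was small. The fall was 1.74-fold (log2 difference -0.80, SE 0.09, limma adjusted p = 0.00527). It was the only member below the median probe set that passed, at a mean log2 of 6.35 against 6.40. The 7 proteoglycan-cleaving members, among them the aggrecanases Adamts4 and Adamts5, all lay below that median and did not pass. Adamts4 had 36.2, 28.4 and 29.7 in WT and 23.3, 25.8 and 27.0 in KI, without overlap (log2 difference -0.30, adjusted p = 0.0964), and Adamts1 differed by 0.44 (adjusted p = 0.199). The procollagen-processing member measured, Adamts3, differed by -0.11 (adjusted p = 0.589).

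No matrix metalloproteinase of the set passed, where 26.8% of all genes did. Of the 15 measured 4 lay above the median probe set, where 40.9% of all genes passed. Mmp12, the macrophage metalloelastase, was at 299.0, 383.4 and 418.3 in WT and 591.3, 288.8 and 319.8 in KI. KI 1 alone was high, and the other KI arrays lay within or just under the WT range (log2 difference 0.06, SE 0.30, adjusted p = 0.917). The difference of Mmp12 was -0.08 without WT 1, -0.26 without KI 1 and -0.40 (adjusted p = 0.056) without both. Mmp2, a gelatinase, was at 199.7, 122.0 and 99.4 in WT and 292.3, 147.7 and 252.8 in KI (log2 difference 0.72, SE 0.36, adjusted p = 0.208). Mmp13, the main interstitial collagenase of mouse bone, was at 80.2, 47.6 and 33.01 in WT and 150.9, 54.6 and 108.3 in KI. This was the largest difference of the 62 in size, 0.94 (SE 0.48, adjusted p = 0.219), and the groups overlapped. Its 95% interval ran from -0.27 to 2.15. The membrane-anchored Mmp16, Mmp17, Mmp23 and Mmp24 differed by -0.19 to 0.32, and the stromelysins and matrilysins Mmp3, Mmp7, Mmp10 and Mmp11 by -0.05 to 0.18. For comparison, Mmp8 rose (1.57), and Mmp9 (-2.89) and Mmp14 (-1.15) fell; these were left out by the rule.

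Of the MMP genes 10 follow each other on chromosome 9 in the RefSeq gene table (GRCm38.p6), in the order Mmp13, Mmp12, Mmp1b, Mmp3, Mmp1a, Mmp10, Mmp8, Mmp27, Mmp20 and Mmp7. Of these 8 were members, and 0 of the 8 passed, where 26.8% of all genes did. Only 1 of the 8 (Mmp12) lay above the median probe set, while Mmp8, within the same row of genes, rose. AP-1 is the dimer of Fos and Jun proteins that RANKL and growth factors activate, and collagenase genes are its textbook targets. The letters TGACTCA were searched on both strands in the 250 bases before each start; on the other strand they read TGAGTCA. They were found in 7 of the 8 members of this row (all but Mmp20). Of the 35 members with an entry 8 had a match (22.9%), a share that comes mostly from this row of neighbours. Outside the row only Adam19 had one, in 1 of its 3 start regions, and Mmp12 and Mmp7 had it in 1 of 2. Of 14368 genes of the array 4.73% had a match, as did 4.46% of 32851 start regions. The matches are shown with 20 bases on either side, 5′ to 3′ on the strand of the gene and with the match in capitals, because these start regions share them, in the MMP genes within 100 bases of the start.
Mmp13: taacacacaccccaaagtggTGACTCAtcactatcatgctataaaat
Mmp12: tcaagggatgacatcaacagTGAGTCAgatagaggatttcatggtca
Mmp3: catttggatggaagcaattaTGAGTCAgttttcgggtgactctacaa
Mmp10: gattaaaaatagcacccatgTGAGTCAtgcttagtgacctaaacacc
Mmp7: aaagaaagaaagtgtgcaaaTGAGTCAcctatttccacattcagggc
Mmp1a: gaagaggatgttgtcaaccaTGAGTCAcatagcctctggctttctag
Mmp1b: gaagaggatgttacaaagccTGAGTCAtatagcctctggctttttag
Adam19: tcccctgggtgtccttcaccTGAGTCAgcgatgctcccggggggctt
These stretches are, in build GRCm38.p6, at chr9:7272459-7272505 for Mmp13, chr9:7347310-7347356 for Mmp12, chr9:7445756-7445802 for Mmp3, chr9:7502259-7502305 for Mmp10, chr9:7692007-7692053 for Mmp7, chr9:7464048-7464094 for Mmp1a and chr11:46055833-46055879 for Adam19, all on the plus strand, and at chr9:7388093-7388139 on the minus strand for Mmp1b. In the 7 MMP genes the match began 35 to 93 bases before the start, and in Adam19 131 bases before it. A match is a run of letters and not a measured site. Of the 8 genes with a match 0 passed the test, where 26.8% of all genes did, and 2 of the 8 lay above the median probe set. Their log2 differences ran from -0.05 (Mmp10) to 0.94 (Mmp13). Mmp1a and Mmp1b lay near the floor, below it on 2 and 4 of the 6 arrays.

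**Figure D3:**
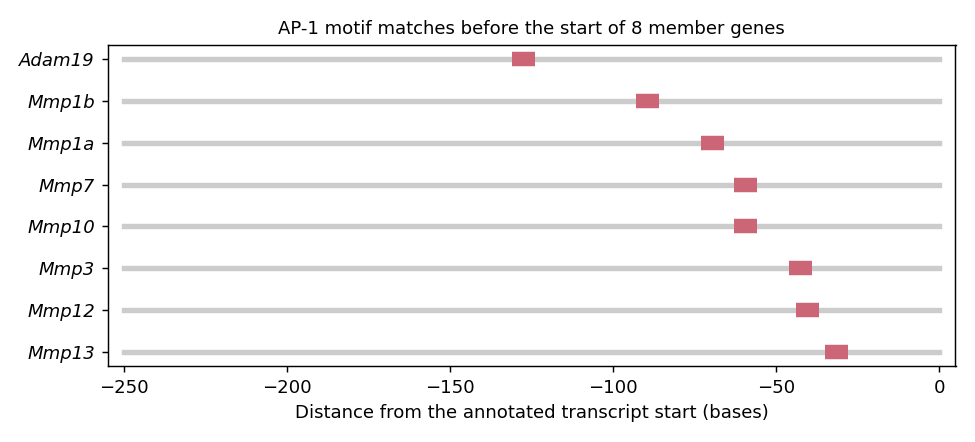
Distance from the annotated transcript start, in bases, of the AP-1 motif matches (red) in the 250 bases before the start (grey) of the 8 member genes that had one. The 7 MMP genes have it between 29 and 93 bases before the start, and Adam19 farther out.

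The TIMPs did not pass, and 3 of the 4 lay above the median probe set, where 40.9% of all genes passed. Timp2, which blocks most MMPs and also helps MMP14 activate MMP2, was at 7752, 10719 and 11304 in WT and 13749, 11632 and 12737 in KI. The groups did not overlap, with WT 1 low and KI 1 high (log2 difference 0.37, SE 0.16, adjusted p = 0.147 by limma). Of its 6 probe sets 5 had a positive difference, up to 0.78, and 0 passed; the difference turned to -0.16 under the older spike-in scaling and was 0.15 without WT 1 and KI 1. Timp4 lay below the median probe set, at 70.2 to 73.0 in WT and 73.4 to 77.8 in KI (0.08, adjusted p = 0.391), and turned to -0.13 and -0.45 under the spike-in scalings.

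Timp1 and Timp3 varied more between arrays of 1 genotype than any other member. Timp1, a secreted inhibitor induced in inflammation, was at 1534, 845.7 and 444.5 in WT and 1485, 494.7 and 1492 in KI. Timp3, the inhibitor that binds to the matrix and acts on ADAM17 as well as MMPs, was at 492.2, 220.4 and 105.1 in WT and 330.4, 86.6 and 201.8 in KI. The range within a genotype was 3.45-fold (WT) and 3.02-fold (KI) for Timp1 and 4.68-fold and 3.81-fold for Timp3, far wider than the difference between the genotypes. Their within-genotype SD on the log2 scale, 0.91 and 1.05, was above that of 99.8% and nearly all of the 18193 genes. The log2 differences were 0.31 (SE 0.63, adjusted p = 0.773) and -0.33 (SE 0.73, adjusted p = 0.795). Single arrays turned them: Timp1 was -0.14 without WT 3, and Timp3 was 0.24 without WT 1 and 0.20 without KI 2. Mmp13 (SD 0.70) and Mmp2 (SD 0.52) were also among the 5 members with the largest spread, with Adam19 (SD 0.55).

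Within each genotype the summed stromal and osteoblast markers, of which Col1a2 made up most, were ordered between the arrays as Timp3, Mmp13 and Mmp2 were. The sum was 9733, 6026 and 3057 on WT 1, WT 2 and WT 3 and 11072, 2999 and 9417 on KI 1, KI 2 and KI 3. Col1a2, a collagen chain of fibroblasts and osteoblasts, was at 5768, 3602 and 1638 in WT and 6867, 1726 and 5756 in KI, and Postn, the matrix protein periostin, at 544.6, 229.5 and 110.2 and at 514.3, 150.1 and 360.2. Of the 62 members 6 had the same order of arrays as that sum within both genotypes (9.68%; Timp3, Mmp2, Mmp13, Mmp23, Adamts1 and Adamts5), against 2.31% of all genes. Of these 6, Mmp13, Adamts1 and Adamts5 lay below the median probe set. Among the 16 members above it 3 had that order, against 2.12% of all genes above it. Timp1 had the order in WT, while KI 1 and KI 3 were nearly equal. Of the 11 markers 6 had the order of the sum in both genotypes (Col1a1, Col1a2, Col3a1, Pdgfrb, Cxcl12 and Postn) and 5 did not. Of the 5, Lum, Pdgfra, Sp7 and Alpl lay below the median probe set, with Sp7 and Alpl highest on KI 2 among the KI arrays. The remaining one, Dcn, the proteoglycan decorin, fell in KI (log2 difference -1.44, adjusted p = 0.00305 by limma). The part of stromal RNA in the values of these members was not tested.

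**Figure D4:**
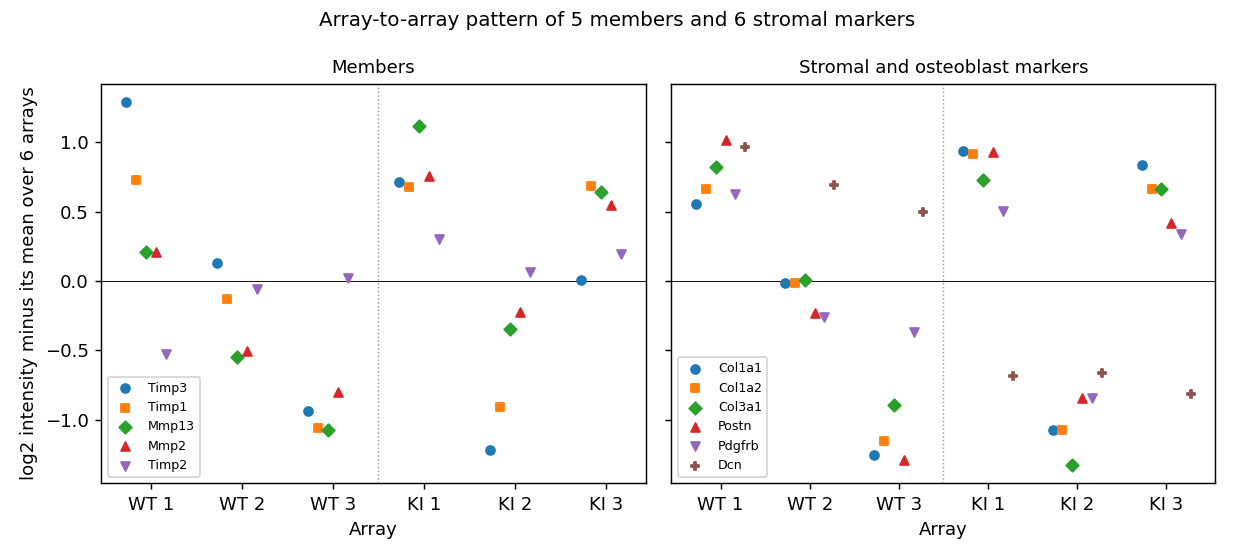
log2 intensity of each gene minus its own mean over the 6 arrays (y axis) on each array (x axis). On the left are 5 members, and on the right 6 of the 11 measured stromal and osteoblast markers. Not drawn are Cxcl12, which has the order of the marker sum, and Lum, Pdgfra, Sp7 and Alpl, which lack it in at least 1 genotype. Timp3, Timp1, Mmp13 and Mmp2 are low on WT 3 and KI 2, as are Col1a1, Col1a2, Col3a1, Postn and Pdgfrb, while Timp2 is lowest on WT 1 and Dcn is lower on all KI arrays.

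Another order was that of the macrophage markers, whose sum was lowest on WT 1 among the WT arrays and highest on KI 1 among the KI arrays. The macrophage sums on KI 3 and KI 2 were nearly equal (148426 and 147980). Within both genotypes 5 of the 62 members followed this order (8.06%; Timp2, Adamts10, Adam19, Mmp12 and Mmp19), where 9.92% of all genes did. Among the 16 members above the median probe set 4 followed it, against 15% of all genes above it. The neutrophil marker sum had the same order of arrays, so these marker lists cannot be told apart by it.

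Partners and substrates of the sheddases were read from lists of 7 kinds with 98 genes measured, of which 18 rose and 9 fell. These are 27.6% of the 98, near the 26.8% of all genes that passed, a share that says nothing particular of the lists; 18.4% rose and 9.18% fell, where 11.9% and 14.9% of all genes did. Of 13 partners 4 rose, 1 fell and 8 did not pass (38.5% called). The 5 called were all among the 10 partners above the median probe set, where 40.9% of all genes passed. Rhbdf2, the iRhom that carries ADAM17 through the secretory pathway, rose by 0.63 in log2 units (SE 0.05, adjusted p = 0.00225), from 701.3 ± 15.3 (SD, n = 3) in WT to 1084 ± 30.7 (SD, n = 3) in KI. Tspan14, a tetraspanin that escorts ADAM10, rose by 0.53 (SE 0.05, adjusted p = 0.00391), and Furin, a convertase that cuts the propeptide off these enzymes, by 0.61 (SE 0.09, adjusted p = 0.00865). Pcsk7, another convertase, differed by -0.37 (SE 0.07, adjusted p = 0.0139), which did not pass without KI 3 (adjusted p = 0.0639). Under the older spike-in scaling 0 partners rose and 3 fell, Tspan14 was at -0.00, and Rhbdf2 (0.10) and Furin (0.08) did not pass.

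Of 24 proteins that ADAM10 or ADAM17 can shed, 11 were higher at the RNA level in KI, 1 was lower and 12 did not pass. The higher ones are 45.8% of the 24, where 11.9% of all genes were higher. In either direction 12 of the 24 were called, where 26.8% of all genes were. Of the 24, 18 lay above the median probe set, where 40.9% of all genes were called and 1949 of 10941 were higher. Like the other lists, this one was chosen with earlier results of these data known, so its share cannot be read as a test. Cd163, a scavenger receptor shed from macrophages, rose by 2.62 (SE 0.22, adjusted p = 0.00257), Notch1 by 2.06 (SE 0.19, adjusted p = 0.00294) and the TNF receptor Tnfrsf1a by 0.60 (SE 0.06, adjusted p = 0.00429). Trem2, a lipid receptor of macrophages, rose by 1.60 (SE 0.17, adjusted p = 0.00441) on a probe set of the kind shared between transcripts, and on its brightest other probe set it differed by 0.09 (adjusted p = 0.591). Under the older spike-in scaling 4 of the 24 rose and 4 fell, and Tnfrsf1a did not pass (0.07). Several of these genes are macrophage markers, and the summed macrophage markers were higher on every KI array; their part in these counts was not tested. RNA levels do not show how much protein was shed.

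Of 10 genes of the plasminogen system, which can activate MMP precursors, 1 rose and 2 fell (30.0% called, near the 26.8% of all genes). Above the median probe set, where 40.9% of all genes were called, lay 7 of the 10. Plau, the urokinase, rose by 1.41 (SE 0.34, adjusted p = 0.0339), from 157.0 ± 62.7 (SD, n = 3) to 408.0 ± 119.6 (SD, n = 3). That call ended without WT 2, WT 3, KI 1, KI 2 or KI 3 (adjusted p = 0.0505 to 0.102). S100a10 and Anxa2, the plasminogen receptor pair, had log2 differences of -0.59 (SE 0.06, adjusted p = 0.00347) and -0.43 (SE 0.06, adjusted p = 0.00851), the latter -0.16 (adjusted p = 0.0965) with 1 mean per gene. Among 16 other zinc metallopeptidases 2 rose and 4 fell (37.5% called, against the same 26.8%). Of these 16, 9 lay above the median probe set, where 40.9% of all genes were called. Ece1, which matures endothelin, rose by 1.25 (SE 0.12, adjusted p = 0.00305), and Lta4h, of leukotriene synthesis, by 0.24 (SE 0.06, adjusted p = 0.0426). Thop1, a cytosolic peptidase, differed by -0.80 (SE 0.15, adjusted p = 0.0175) and Phex by -0.14 (SE 0.03, adjusted p = 0.0306), the latter below the median probe set. With single arrays left out, the call for Thop1 ended only without KI 1 or KI 3 (limma adjusted p = 0.0547 and 0.0601). That for Lta4h held only without WT 1 (limma adjusted p = 0.0167), and that for Phex only without KI 2 (limma adjusted p = 0.0442). With 1 mean per gene Thop1 (-0.39, adjusted p = 0.0623) and Plau (1.06, adjusted p = 0.0602) did not pass either. Of 7 other protease inhibitors, with 0 above the median probe set, and 7 ADAMTS-like proteins, with 2 above it, 0 passed. Of 21 matrix substrates 0 rose and 1 (Dcn) fell (4.76% called, against the same 26.8%). Above the median probe set, where 40.9% of all genes were called, lay 15 of the 21.

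**Figure D5:**
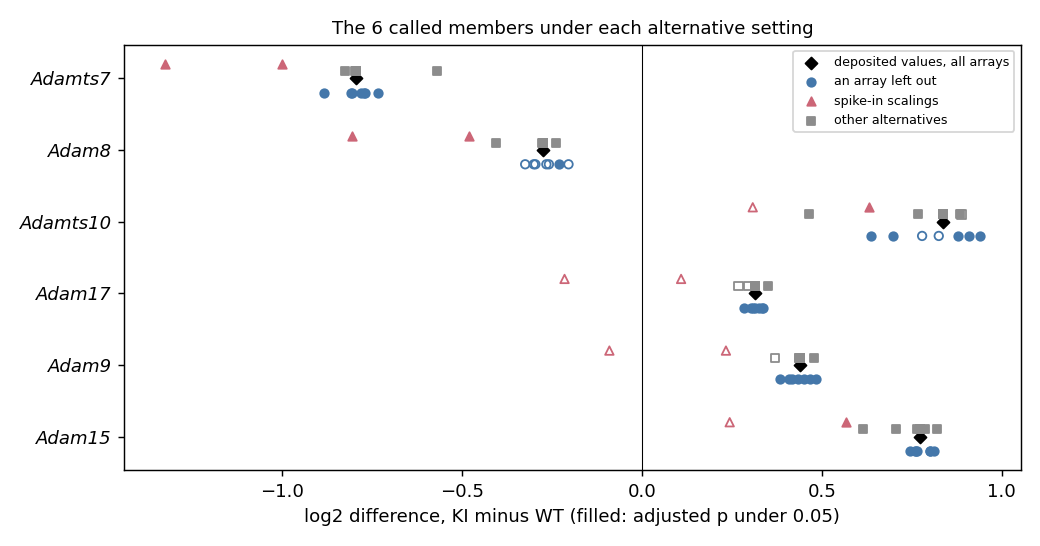
The log2 difference KI minus WT (x axis) of the 6 called members with the deposited values and all arrays (diamonds), with arrays left out (circles), under the spike-in scalings (triangles) and under the other alternatives apart from the replicate-number block (squares); filled symbols passed the threshold. Adamts7 and Adam8 lie below 0 throughout, Adam15 and Adamts10 above 0 throughout, and Adam17 and Adam9 cross 0 under the older spike-in scaling.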

How the data were processed

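Per the labels' protocols, RNA of 6 samples was hybridised to Affymetrix mouse 3' arrays. The authors deposited a linear intensity for each array and each of 45101 probe sets, made with Affymetrix Expression Console, per the submitters' processing notes. How probes were summarised and arrays normalized was not given in the sources used here. Near-equal quantiles were taken to mean values already normalized between arrays. Arrays carry no counts, so their number limits the precision.

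Intensities were floored at 16 (5.46% lay below) and log2 transformed. Of 45037 non-control probe sets 34945 had 1 symbol, 932 several and 9160 none; only the first were used. KI and WT were compared over 18193 genes with limma 3.58.1 in R 4.3.3 (lmFit, eBayes with an intensity trend), Benjamini-Hochberg threshold 0.05. Every intensity was kept in the fit, and 16 of the 62 members lay above the median probe set. The steps were tested on simulated data. All members passing, the 4 TIMPs and Adam10, Adam17, Mmp2, Mmp12 and Mmp13 were named, and up to 4 called genes of each pathway list. Members and lists were chosen with earlier results of these data known. A gene is described from its probe set, and intensities of different genes were not compared. Of the other marker lists, mast cells and basophils gave 1 lower of 7 genes (Kit), erythroid cells and megakaryocytes 1 higher of 5 (Pf4), and B cells (5) and T and NK cells (6) 0 at the threshold. Promoters came from RefSeq (GRCm38.p6).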

Additional observations from a re-analysis of the deposited data

How the results depend on the processing

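Alternatives were 13 changes of normalization, floor, filter, variance prior, design, probe set or arrays and 6 fits without 1 array; those for the pathway genes were added after seeing the data. Of the members 4 rose and 2 fell. Spike-in scaling gave 2 and 6, older spike-in scaling 0 and 19, the replicate block 1 and 0, and the description number as a covariate 1 and 3, of which 3 of the 4 passed without it. A common median gave 1 lower, as did the filter, which tests 16 members; without single arrays 3 to 5 rose and 1 fell. Of the pathway genes (18 higher, 9 lower) older spike-in scaling gave 6 and 28, the block 2 and 1, the covariate 9 and 4, and leaving out WT 1 with KI 1 20 and 8; without single arrays, 9 to 19 rose and 4 to 8 fell. Same-numbered arrays deviated in opposite directions (correlations of -0.37, -0.26 and -0.27), so the numbers were not read as pairs, and with the block 344 of 18193 genes passed.

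Reversed under older spike-in scaling were Adam17 (-0.21), Adam9 (-0.090), Timp1 (-0.22), Timp2 (-0.16), Timp4 (-0.45), Mmp12 (-0.47), Lta4h (-0.29) and Tspan14 (-0.0022), and under spike-in scaling Mmp12 (-0.14) and Timp4 (-0.13). Without WT 1 and KI 1, Adam10 was 0.0033 and Mmp12 -0.40. Without single arrays Adam10 ran from -0.11 to 0.034 (above 0 without KI 1), Mmp12 from -0.26 to 0.26 (below 0 without WT 1, -0.08, or KI 1), Timp1 from -0.14 (without WT 3) to 0.84, and Timp3 from -0.88 to 0.24 (above 0 without WT 1 or, at 0.20, KI 2); with the covariate Timp3 was 0.59. Timp3 passed under older spike-in scaling (-0.86). The cause of these changes was not tested. Low signal limits the 46 members not above the median probe set.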
